A study of Mus musculus with 6 samples.

Results

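The MHC class II antigen presentation genes were described in LSK cells of Tet1 KO and WT mice through every probe set that the array annotation assigned to 1 of 10 named genes and to no other. The genes are H2-Aa, H2-Ab1, H2-Eb1, Cd74, Ciita, H2-DMa, H2-DMb2, H2-Oa, H2-Ob and Ctss, and all 10 were found. They had 20 probe sets, of 45037 tested. The set was chosen partly on measured values of these arrays, namely low values of H2-Aa, H2-Ab1, H2-Eb1 and Cd74 in Tet1 KO. The differences between genotypes below are therefore descriptions, and the p-values of the fit are no independent evidence. LSK cells are the lineage-negative marrow fraction positive for Sca-1 and Kit, in which blood stem cells and early multipotent progenitors are found. The samples were 3 from Tet1 KO mice and 3 from WT mice, all of the strain labelled CD57BL/6, untreated as far as the labels say, with cells flow sorted from bone marrow at 6 months of age and 1 array per sample. The Tet1 protein oxidises methylated cytosine. The labels do not give the deleted part of the gene, whether it was deleted in blood cells alone, or whether each sample came from its own mouse, so the spread between samples may be partly technical.

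MHC class II molecules display peptides from endocytosed proteins to CD4+ T cells. H2-Aa and H2-Ab1 encode the alpha and beta chains of the A molecule, and H2-Eb1 encodes the beta chain of the E molecule. The invariant chain, encoded by Cd74, holds new dimers and guides them to endosomes, where cathepsin S, encoded by Ctss, cleaves it. The DM molecule, made from H2-DMa with H2-DMb1 or H2-DMb2, then exchanges the remaining fragment for peptide, and the DO molecule, made from H2-Oa and H2-Ob, restrains DM. Transcription of the A and E chains depends on the coactivator encoded by Ciita, which acts through factors bound to X and Y boxes in the promoters. Class II is best known from B cells, dendritic cells and macrophages, and blood stem and progenitor cells of mice also carry it.

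Promoter windows, from 250 bases before to 50 bases after an annotated start, were taken from RefSeq (GRCm38.p6) and were found for 7 of the 10 genes, with 8 windows in all. The DM chain gene H2-DMa was lower in all Tet1 KO samples, but its 2 windows are not shown. The windows of 4 other genes are shown. They place 2 chain genes of the A and E molecules, also lower in all Tet1 KO samples, beside a DM chain and a DO chain that were not. They lie on chromosome 17, H2-Aa at chr17:34287774-34288073 on the minus strand, and on the plus strand H2-Eb1 at chr17:34305617-34305916, H2-DMb2 at chr17:34144999-34145298 and H2-Ob at chr17:34238655-34238954. Each is written 5′ to 3′ along the gene. Capitals mark matches on either strand to ATTGG, the core of the Y box, and CNGATG, the end of the X box. A match is to letters only and need not be an X or Y box. In H2-Aa, CNGATG lay at -232 from the start, on the opposite strand, with ATTGG at -48. In H2-Ob, CNGATG lay at -189 and ATTGG at -57. X boxes with other letters were not searched for, so lower case beside ATTGG does not show that none is there.
H2-Aa: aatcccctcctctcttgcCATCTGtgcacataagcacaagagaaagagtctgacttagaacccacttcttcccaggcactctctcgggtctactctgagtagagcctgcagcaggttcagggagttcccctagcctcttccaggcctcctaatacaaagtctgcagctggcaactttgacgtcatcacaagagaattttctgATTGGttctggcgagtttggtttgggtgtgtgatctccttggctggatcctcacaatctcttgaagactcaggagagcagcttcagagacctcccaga
H2-Eb1: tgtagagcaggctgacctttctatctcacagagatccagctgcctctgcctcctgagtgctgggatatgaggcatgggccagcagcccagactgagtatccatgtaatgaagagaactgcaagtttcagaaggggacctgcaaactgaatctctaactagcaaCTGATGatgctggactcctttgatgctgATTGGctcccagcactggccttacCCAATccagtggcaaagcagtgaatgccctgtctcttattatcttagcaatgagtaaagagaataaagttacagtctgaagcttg
H2-DMb2: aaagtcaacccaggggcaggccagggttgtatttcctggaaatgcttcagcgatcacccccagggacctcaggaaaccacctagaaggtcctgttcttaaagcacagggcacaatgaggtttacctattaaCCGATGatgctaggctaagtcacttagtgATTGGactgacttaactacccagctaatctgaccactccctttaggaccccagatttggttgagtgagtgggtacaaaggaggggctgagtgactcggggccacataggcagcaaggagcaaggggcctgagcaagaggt
H2-Ob: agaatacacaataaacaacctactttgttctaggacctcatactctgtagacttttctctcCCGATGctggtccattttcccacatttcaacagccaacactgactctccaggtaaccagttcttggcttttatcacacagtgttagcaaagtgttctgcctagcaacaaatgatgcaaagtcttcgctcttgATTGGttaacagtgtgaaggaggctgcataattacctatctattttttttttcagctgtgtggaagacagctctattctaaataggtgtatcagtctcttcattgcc

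The ATTGG core lay on the gene's strand within 90 bases before the start in 5 of the 7 genes. It began 48 bases before the start in H2-Aa, 59 in H2-Eb1, 90 in H2-DMb2, 43 in H2-Oa and 57 in H2-Ob, and H2-DMa had it 198 bases before the start in 1 of its 2 windows. Of all 32851 windows, 37.4% held ATTGG on either strand and 36.1% held CNGATG. The letters CNGATG with ATTGG 10 to 30 bases after them on the same strand were found in H2-Eb1 and H2-DMb2, against 0.743% of all windows. The Ctss window, on chromosome 3, held no ATTGG but held GAGGAA, the core recognised by the myeloid and B cell factor PU.1, at 2 positions, 1 on each strand, and 28.3% of all windows held it. CpG dinucleotides were few in the chain genes, with 3 in H2-Aa, 0 in H2-Eb1, 3 in H2-DMb2, 3 in H2-Oa and 2 in H2-Ob, against a median of 7 over all windows. H2-DMa differed between its windows, with 29 CpG in the one at the upstream start and 0 in the other. These matches are descriptions of the letters, and the arrays did not measure methylation or binding.

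Tet1 itself was lower at all 4 of its probe sets, by 0.93 to 1.68 on the log2 scale, without overlap between the groups. The array of Tet1 KO replicate 2 stood apart, with the narrowest spread over probe sets (SD 2.20, against 2.26 to 2.32 on the other arrays), the brightest bacterial control (4.87, against at most 4.37) and the lowest array weight (0.259, against 0.873 to 1.88). Xist, the RNA of the inactive X chromosome, read 12.08, 11.78 and 3.82 in the Tet1 KO samples and 12.17, 12.09 and 4.58 in the WT samples (log2). Replicate 3 of each group was thus low for Xist, and these were also the arrays high for the Y-linked Kdm5d, so that both groups held 1 such array. Dim probe sets read slightly higher and bright ones slightly lower in Tet1 KO, and the probe sets within 0.5 of the mean level of the brightest H2-Aa probe set had a median difference of -0.14. Differences are Tet1 KO minus WT on the log2 scale, with the standard error (SE) of the moderated limma fit. The precision is limited by 3 arrays per group, with which an exact permutation test of a single probe set cannot give a p below 0.1.

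H2-Aa, H2-Ab1 and H2-Eb1, which encode chains of the A and E molecules, and the invariant chain gene Cd74 were lower in Tet1 KO. Of the 9 probe sets of H2-Aa, H2-Ab1, H2-Eb1 and Cd74, 8 had every Tet1 KO array below every WT array, with differences from -1.42 to -0.57. The ninth, an H2-Aa probe set, read near 2 on every array. On the linear scale the Tet1 KO level was 37.4% to 65.6% of WT at the H2-Aa probe sets above background, 54.9% to 67.2% at those of H2-Ab1, 63.2% for H2-Eb1 and 43.0% for Cd74.

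**Figure D1:**
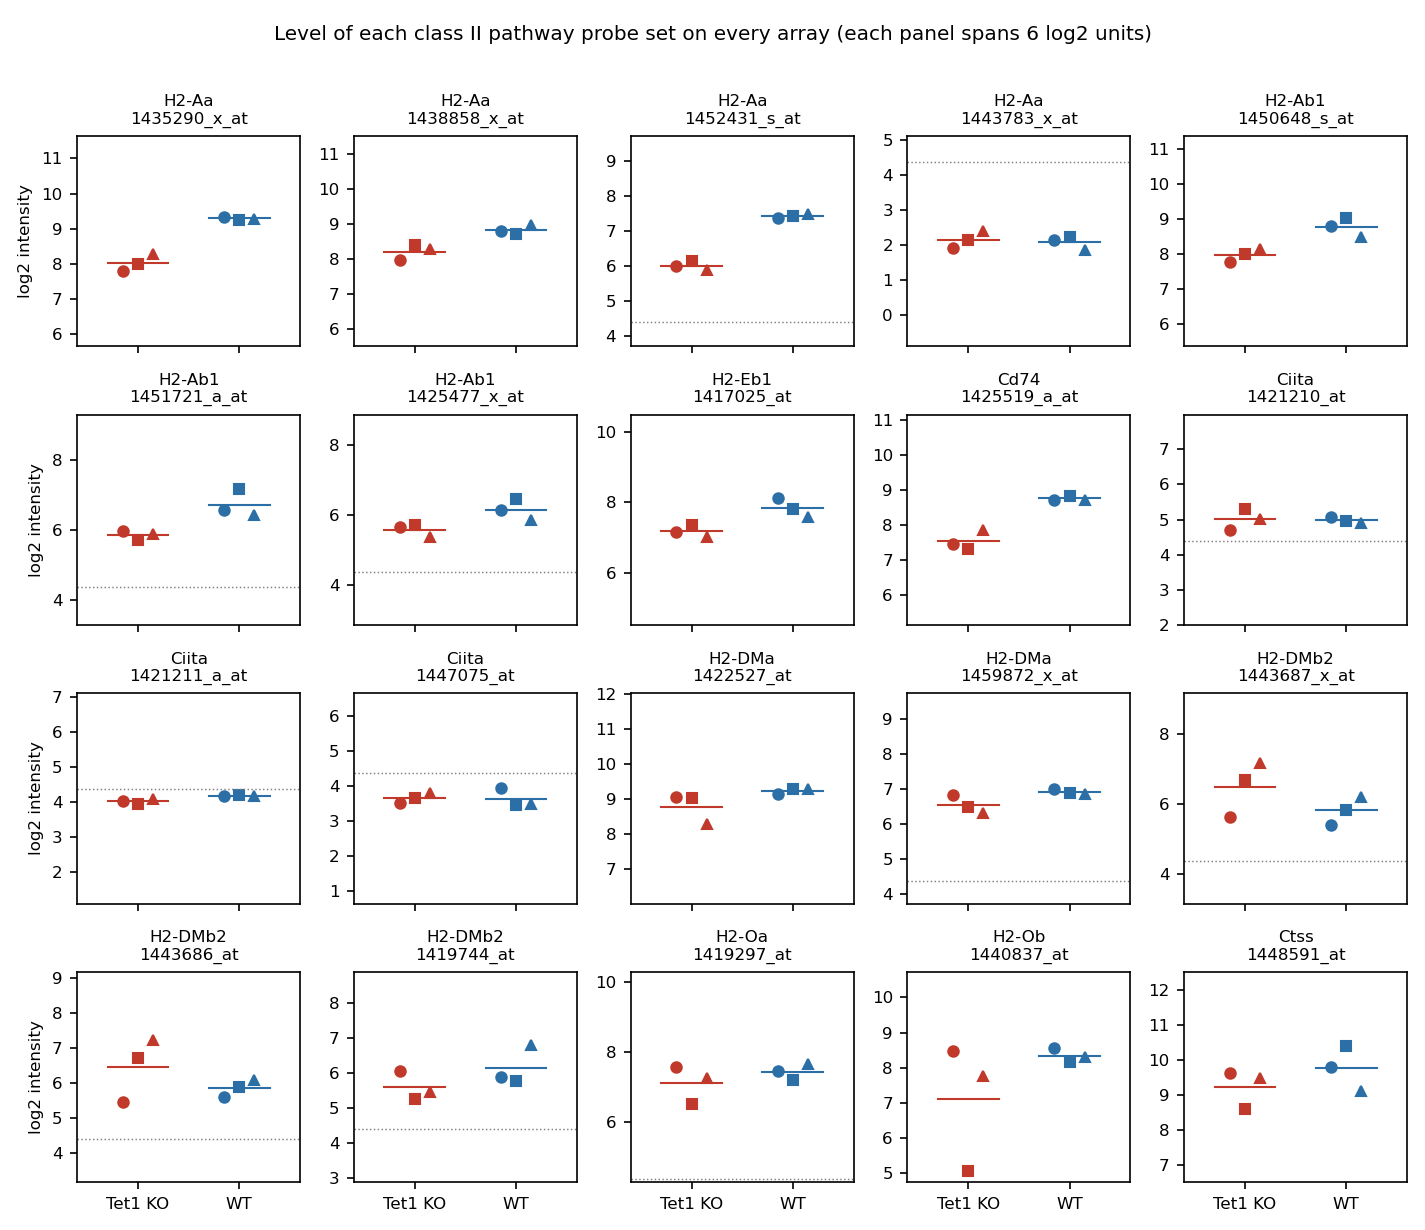
Log2 intensity of each of the 20 probe sets on every array, with Tet1 KO (red) left of WT (blue) in each panel. Circles, squares and triangles are replicates 1, 2 and 3, horizontal bars are group means, and the dotted line, where in range, is the bacterial control level of 4.39. The Tet1 KO points lie below all WT points in the panels of H2-Aa (3 of 4), H2-Ab1, H2-Eb1 and Cd74, while for H2-Ob 1 Tet1 KO point lies far below the others.

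The brightest H2-Aa probe set, 1435290_x_at, read 7.78, 7.98 and 8.26 in Tet1 KO and 9.34, 9.25 and 9.28 in WT. The WT samples lay within 0.1 of each other and the highest Tet1 KO sample lay well under them. The means were 8.01 ± 0.24 in Tet1 KO and 9.29 ± 0.04 in WT (SD, n = 3 each), a difference of -1.28 (SE 0.17). Probe set 1452431_s_at, which shares probes with related sequences as its suffix says, read 5.99, 6.14 and 5.87 in Tet1 KO and 7.37, 7.41 and 7.48 in WT. Both groups were tight, and the difference was -1.42 (SE 0.15). The suffix _x_at likewise marks probes that may match other sequences, so no _s_at or _x_at value here is certain to come from 1 gene. Probe set 1438858_x_at read 7.98, 8.40 and 8.28 in Tet1 KO and 8.80, 8.72 and 8.97 in WT. Its groups were closer, though still apart, and the difference was -0.61 (SE 0.17). Probe set 1443783_x_at, with means of 2.16 ± 0.24 in Tet1 KO and 2.09 ± 0.19 in WT (SD, n = 3 each), lay under the bacterial control level. The 3 H2-Aa probe sets above that level went the same way but differed in size.

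H2-Ab1, which encodes the partner chain of H2-Aa, was lower at each of its 3 probe sets. The brightest, 1450648_s_at, read 7.77, 8.003 and 8.15 in Tet1 KO and 8.81, 9.02 and 8.49 in WT, a difference of -0.80 (SE 0.20). Probe set 1451721_a_at read 5.97, 5.73 and 5.90 in Tet1 KO and 6.58, 7.19 and 6.44 in WT, a difference of -0.87 (SE 0.23). Probe set 1425477_x_at read 5.66, 5.72 and 5.39 in Tet1 KO and 6.15, 6.48 and 5.85 in WT, a difference of -0.57 (SE 0.21). WT replicate 2 was the highest array and WT replicate 3 the lowest WT array at all 3 probe sets. The gap between the lowest WT array and the highest Tet1 KO array was narrow at 1425477_x_at.

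H2-Eb1 was measured by 1 probe set, which read 7.15, 7.36 and 7.02 in Tet1 KO and 8.13, 7.80 and 7.59 in WT. The groups did not overlap, and the difference was -0.66 (SE 0.19). In C57BL/6 mice the partner gene H2-Ea is defective, so that the E molecule is not displayed, while H2-Eb1 is still transcribed. H2-Ea read 4.72, 4.80 and 4.68 in Tet1 KO and 4.41, 4.49 and 4.63 in WT. The Tet1 KO arrays were all above the WT arrays, with a difference of 0.22 (SE 0.14), opposite in sign to H2-Eb1. All 6 values were near the bacterial controls, and that of Tet1 KO replicate 2 was below the brightest control on its array.

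Cd74, the invariant chain gene, lies on another chromosome than the H2 genes and was lower by a similar amount to H2-Aa. It read 7.46, 7.30 and 7.86 in Tet1 KO and 8.72, 8.84 and 8.71 in WT. The means were 7.54 ± 0.29 in Tet1 KO and 8.76 ± 0.07 in WT (SD, n = 3 each), a difference of -1.22 (SE 0.19). The WT samples again lay close together while the Tet1 KO samples spread more widely. Over the 6 arrays, the brightest probe sets of Cd74, H2-Ab1 and H2-Eb1 had Pearson r of 0.98, 0.93 and 0.84 with that of H2-Aa. These are descriptions over arrays that share the gap between groups. The corresponding r was 0.03 for Ciita, 0.50 for H2-DMa, 0.38 for H2-Oa, 0.48 for H2-Ob, 0.45 for Ctss and -0.40 for H2-DMb2.

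**Figure D2:**
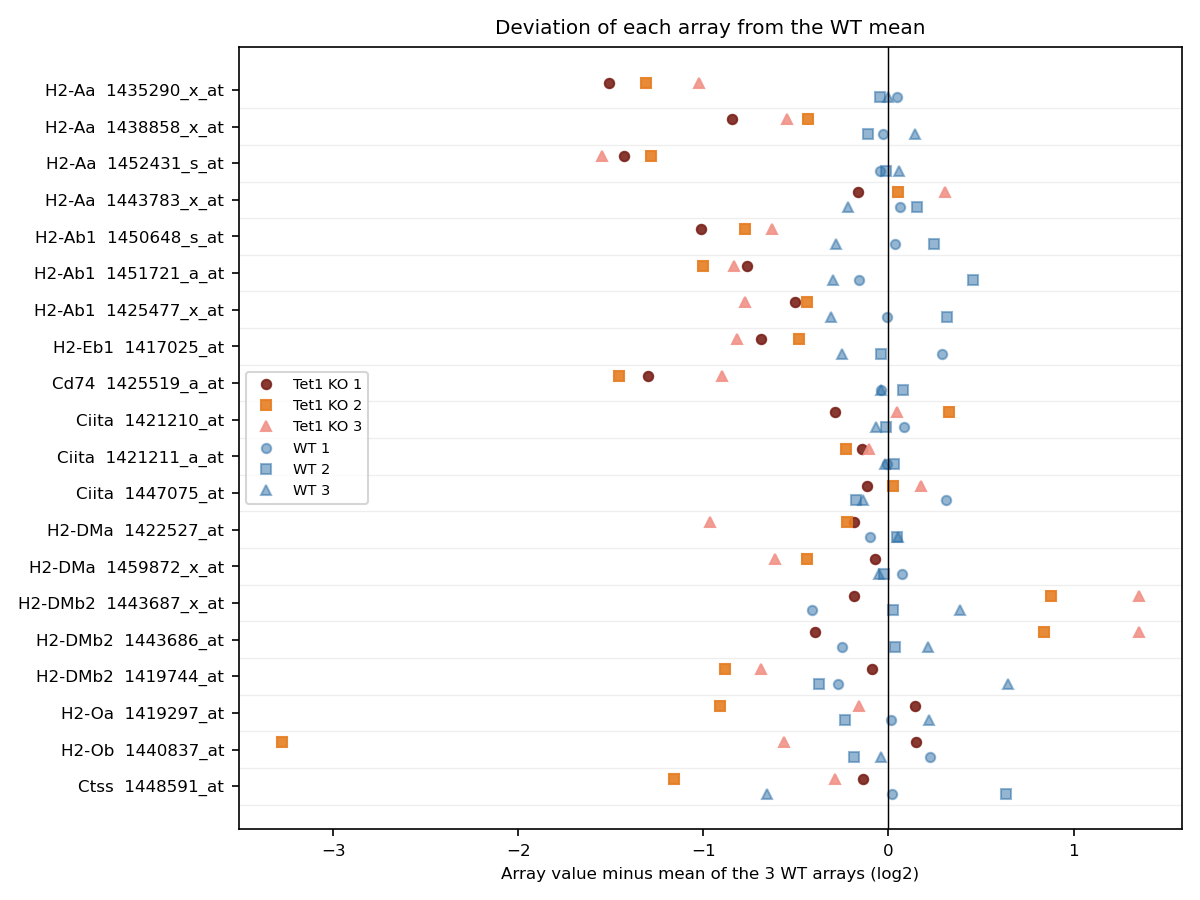
Value of each array minus the mean of the 3 WT arrays (log2) for each of the 20 probe sets, with the Tet1 KO arrays in warm colours above the WT arrays in blue in each row. For H2-Aa (upper 3 rows), H2-Ab1, H2-Eb1 and Cd74 the 3 Tet1 KO arrays lie together on the low side, whereas for H2-DMb2, H2-Oa, H2-Ob and Ctss they are spread and Tet1 KO replicate 2 is often the lowest.

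Ciita, the class II coactivator, showed no such separation at its brightest probe set. Probe set 1421210_at read 4.69, 5.31 and 5.03 in Tet1 KO and 5.06, 4.97 and 4.91 in WT. The groups overlapped, and the difference was 0.03 (SE 0.19, 95% interval -0.43 to 0.49). Probe set 1421211_a_at read 4.04, 3.96 and 4.08 in Tet1 KO and 4.18, 4.21 and 4.16 in WT, without overlap but with a difference of -0.16 (SE 0.13) and with all 6 values under 4.39. Probe set 1447075_at was also under that level, with a difference of 0.03 (SE 0.19). The signal of Ciita was thus near background throughout, and a change within the interval above was not detectable with these arrays.

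The peptide exchange factor genes were mixed. H2-DMa was lower at both probe sets, without overlap between the groups. Probe set 1422527_at read 9.06, 9.02 and 8.28 in Tet1 KO and 9.15, 9.30 and 9.30 in WT, a difference of -0.46 (SE 0.24). Only Tet1 KO replicate 3 was far from WT there, and without it the difference was -0.20. Probe set 1459872_x_at read 6.85, 6.48 and 6.31 in Tet1 KO and 6.99, 6.90 and 6.87 in WT, a difference of -0.38 (SE 0.18). Tet1 KO replicate 1 lay just under the WT samples at both.

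The 3 probe sets of H2-DMb2 disagreed. Probe set 1443686_at read 5.46, 6.70 and 7.21 in Tet1 KO and 5.60, 5.89 and 6.07 in WT, a difference of 0.60 (SE 0.44). Probe set 1443687_x_at, annotated with the same accession as 1443686_at, read 5.64, 6.71 and 7.18 in Tet1 KO and 5.42, 5.85 and 6.21 in WT, a difference of 0.68 (SE 0.42). In both, Tet1 KO replicates 2 and 3 were above every WT sample, while replicate 1 was below every WT sample at 1443686_at and within the WT range at 1443687_x_at. Without Tet1 KO replicate 3 the differences were 0.22 and 0.35, and without replicate 1 they were 1.10 and 1.12. Probe set 1419744_at, annotated with a RefSeq transcript, read 6.05, 5.26 and 5.46 in Tet1 KO and 5.87, 5.77 and 6.79 in WT, a difference of -0.55 (SE 0.34). There Tet1 KO replicates 2 and 3 were the lowest samples, and without WT replicate 3 the difference was -0.23. The arrays thus give no single direction for H2-DMb2. A near-identical neighbour, H2-DMb1, shares probe sets with it, and those are given among the other observations.

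The DO chain genes overlapped between groups. H2-Oa read 7.59, 6.53 and 7.28 in Tet1 KO and 7.46, 7.21 and 7.66 in WT, a difference of -0.31 (SE 0.29). Only Tet1 KO replicate 2 was under the WT range, and without it the difference was -0.01. H2-Ob read 8.49, 5.06 and 7.77 in Tet1 KO and 8.56, 8.15 and 8.30 in WT. The mean of 7.10 ± 1.81 in Tet1 KO against 8.33 ± 0.21 in WT (SD, n = 3 each) gave a difference of -1.23 (SE 0.83, 95% interval -3.21 to 0.74). Tet1 KO replicates 2 and 3 were under the WT range and replicate 1 was inside it. Without Tet1 KO replicate 2 the difference was -0.21.

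Ctss, which encodes the protease that trims the invariant chain, read 9.64, 8.62 and 9.49 in Tet1 KO and 9.80, 10.42 and 9.12 in WT. The groups overlapped, with WT replicate 3 below 2 of the Tet1 KO samples. The difference was -0.53 (SE 0.40, 95% interval -1.49 to 0.43). It was -0.21 without Tet1 KO replicate 2, also -0.21 without WT replicate 2, and -0.86 without WT replicate 3.

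**Figure D3:**
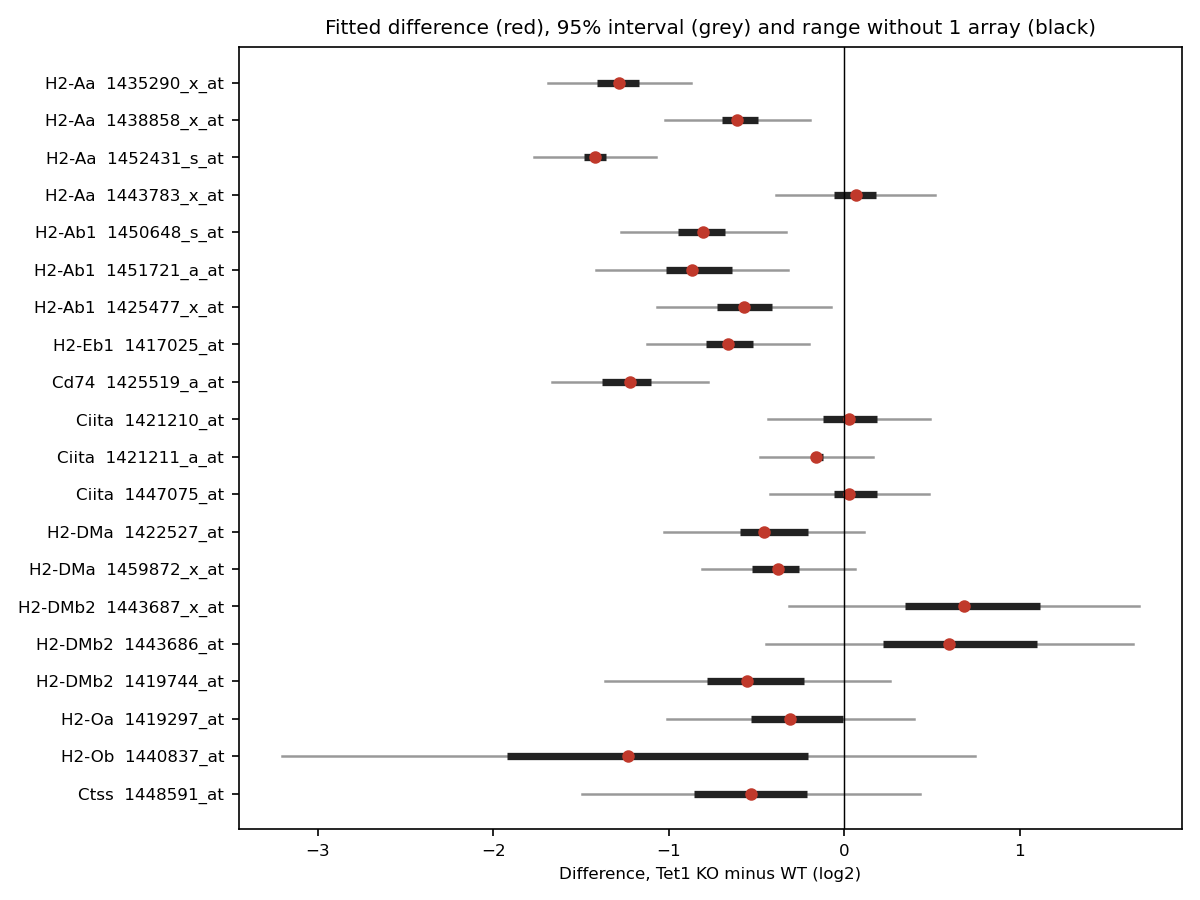
Fitted difference of Tet1 KO minus WT (log2) for each of the 20 probe sets as a red point, with its 95% interval from limma in grey and the range of the fitted difference when 1 array is left out in black. The 8 probe sets of H2-Aa, H2-Ab1, H2-Eb1 and Cd74 above background have intervals below 0, and the interval of H2-Ob is the widest.

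Of the 20 probe sets, 15 had a difference under 0, against 42.9% of all probe sets. Their median was -0.54, against 0.06 over all probe sets. For 11 probe sets every Tet1 KO array was below every WT array, against 6.29% of all, and for 0 every one was above, against 9.96%. A difference of -1 or less was seen for 4 member probe sets, against 1.19% of all, and one of 1 or more for 0, against 0.677%. The limma fit gave 8 member probe sets an unadjusted p under 0.05, all lower, against 6.81% of all probe sets, of which 3.58% were lower and 3.23% higher. These were the 8 of the chain genes and Cd74. With Benjamini-Hochberg adjustment over 45037 probe sets, 0 members passed 0.05, as did 0.0% of all, and the lowest adjusted p among members was 0.397, for 1452431_s_at of H2-Aa. As the contrast led to the choice of the genes, nothing is read from these counts beyond their size. Among the 17 member probe sets whose mean was above the bacterial control level, 14 had a difference under 0, against 54.7% of the 28780 such probe sets, with medians of -0.57 and -0.04. In that range 10 members were lower without overlap, against 8.78%, and 8 were lower at an unadjusted limma p under 0.05, against 4.92%.

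**Figure D4:**
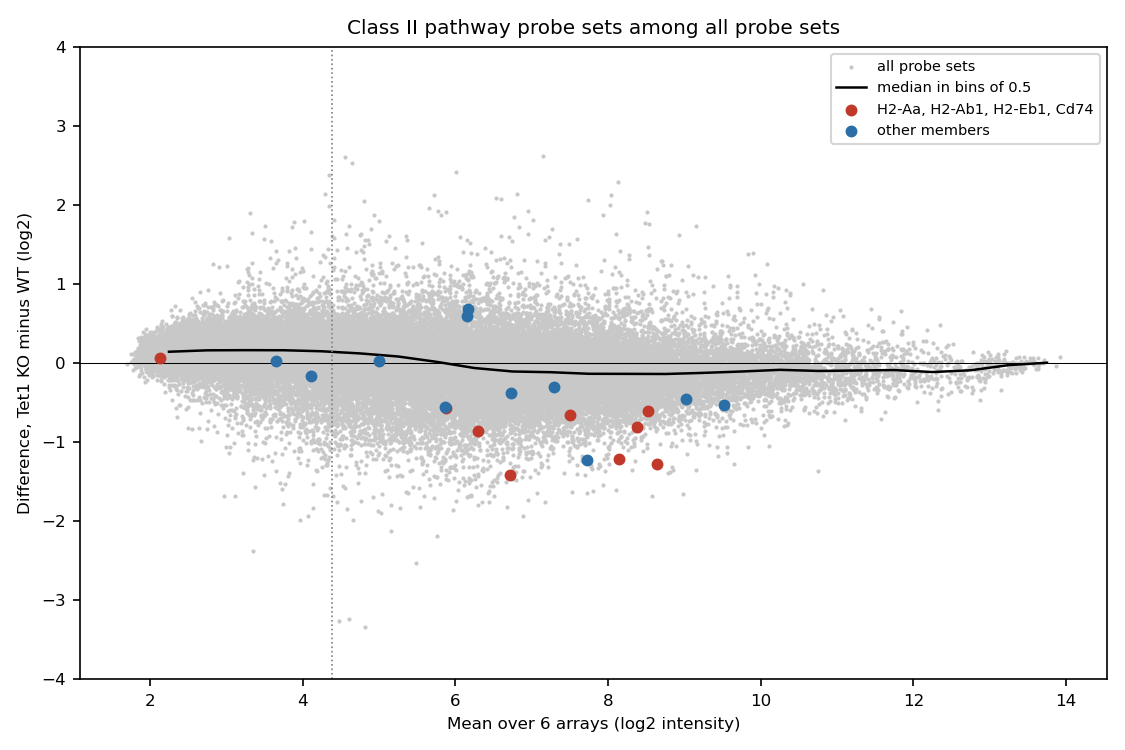
Difference of Tet1 KO minus WT (log2) against the mean over 6 arrays for 45037 probe sets (grey), with the running median in black, the probe sets of H2-Aa, H2-Ab1, H2-Eb1 and Cd74 in red and the other members in blue. The dotted line is the bacterial control level of 4.39, and 8 of the 9 red points lie between -1.42 and -0.57, well below the running median. The red point of H2-Ab1 at -0.57 is partly covered by that of H2-DMb2.

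The other genes of the pathway were taken from lists, at the brightest probe set of each gene. Of 15 measured genes for class II transcription, 12 had a difference under 0, against 43.5% of all genes, with a median of -0.13 against 0.05 over all genes. Most of these genes were bright, and bright probe sets read slightly lower in Tet1 KO in general. Probe sets within 0.5 of the mean level of the H2-Eb1 probe set had a median difference of -0.13. The WT means of the listed genes ran from 4.24 for Irf4 to 10.18 for Nfya, and the genes were not matched by level one by one. Whether the list median follows from level was not tested. At an unadjusted limma p under 0.05 there were 2 lower genes, against 3.96% of all genes, and 0 higher. These were Nfyb, a subunit of the factor that binds the Y box, with a difference of -0.50 (SE 0.17), and Jak1, a kinase of interferon receptors, with -0.42 (SE 0.16). Rfx5, the DNA-binding subunit of the X box factor, read 8.49, 7.86 and 8.66 in Tet1 KO and 8.90, 8.66 and 9.48 in WT, with a difference of -0.68 (SE 0.29). Its groups were separated by a narrow gap. Irf1, which drives Ciita after interferon-gamma, differed by -0.25 (SE 0.13). The summed intensity of this list, on the linear scale, was 4750 to 4965 in Tet1 KO and 5350 to 5859 in WT. No gene of any list passed adjustment in limma.

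Among 10 genes of endosomal processing, 6 had a difference under 0, against 43.5% of all genes. At an unadjusted limma p under 0.05, 1 was lower and 1 higher, against 3.96% and 3.25% of all genes. The lower one was Ctsb, cathepsin B, which read 9.24, 8.67 and 9.18 in Tet1 KO and 9.51, 9.47 and 9.54 in WT, a difference of -0.48 (SE 0.19). Ctsl, cathepsin L, differed by -0.31 (SE 0.18). The higher one was Marchf1, a ubiquitin ligase that removes class II from the surface, with a difference of 0.88 (SE 0.23). Its means of 3.60 ± 0.40 in Tet1 KO and 2.72 ± 0.17 in WT (SD, n = 3 each) both lay under the bacterial control level. Among 6 costimulatory genes, 2 had a difference under 0, against 43.5% of all genes, and 4 had one above 0. Of the 6, 0 had an unadjusted limma p under 0.05. Cd80, a ligand of CD28, differed by 0.28 (SE 0.14) and Cd86, its relative, by -0.23 (SE 0.16).

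Mature antigen presenting cells carry far more class II than progenitors, so the markers of such cells were set beside the member genes. In bulk RNA, fewer cells of a type and less RNA per cell cannot be told apart. The summed intensity of the 10 member genes was 2014 to 2715 in Tet1 KO and 3406 to 4326 in WT, without overlap. That of 11 B cell genes was 432 to 580 in Tet1 KO and 461 to 528 in WT. That of 8 genes of conventional dendritic cells was 227 to 243 in Tet1 KO and 225 to 330 in WT. That of 7 genes of plasmacytoid dendritic cells was 1361 to 1450 in Tet1 KO and 1381 to 1529 in WT. That of 12 monocyte and macrophage genes was 1540 to 1958 in Tet1 KO and 1514 to 1646 in WT, and that of 8 T and NK cell genes was 501 to 894 in Tet1 KO and 475 to 853 in WT. The groups overlapped in each of these 5 marker lists. The sums weigh bright genes most, such as Lyz2 among the monocyte and macrophage genes (10.28 in Tet1 KO and 10.26 in WT, mean log2), and the member genes were chosen for low Tet1 KO values, so nothing is read from setting the sums side by side.

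**Figure D5:**
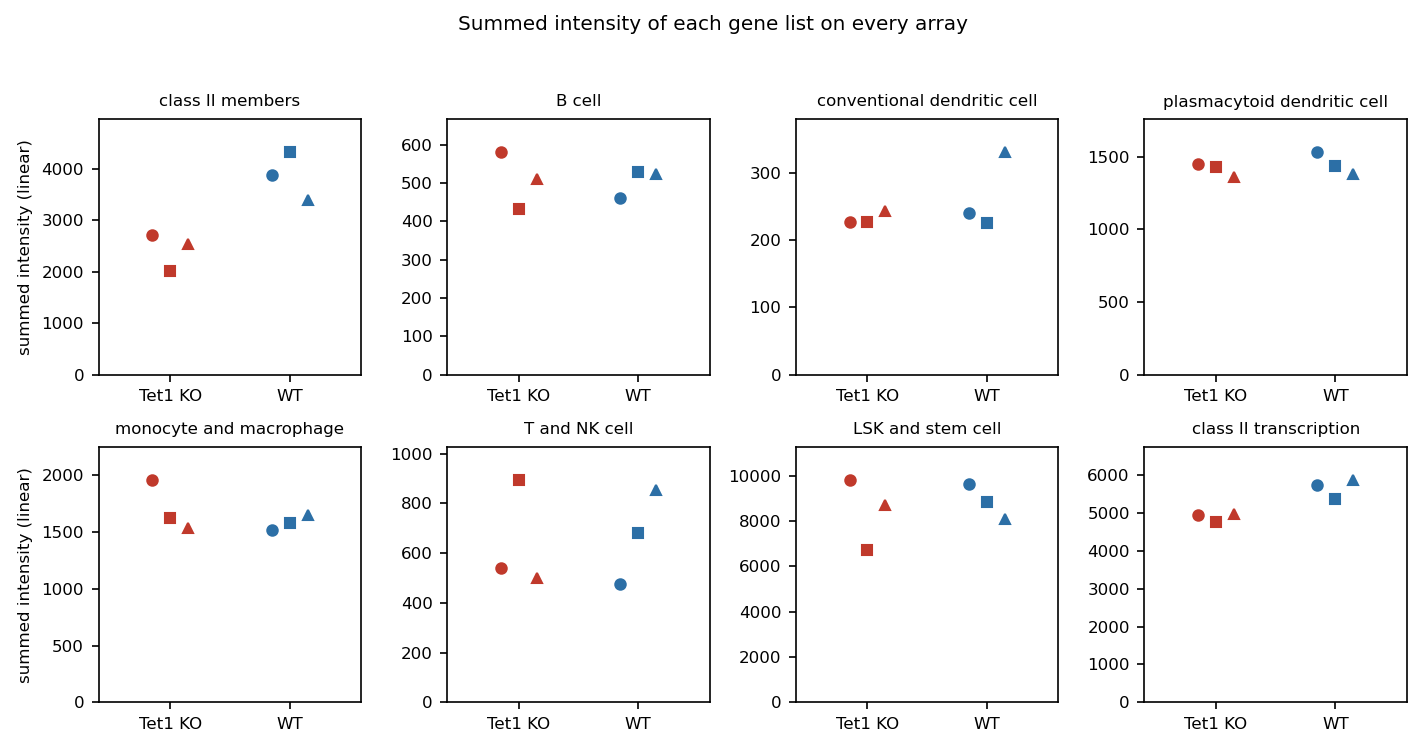
Summed intensity (linear scale, from 0) of the member genes and of 7 other gene lists on every array, at the brightest probe set of each gene, with Tet1 KO (red) left of WT (blue) and circles, squares and triangles for replicates 1, 2 and 3. The member genes lie at 2014 to 2715 in Tet1 KO and 3406 to 4326 in WT, the class II transcription genes are also separated, and the lists of cell types overlap.

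Markers of mature cells lay on both sides of the bacterial control level. Means were under it in both groups for 3 of 11 B cell genes, 3 of 8 conventional dendritic cell genes, 0 of 7 plasmacytoid dendritic cell genes, 6 of 12 monocyte and macrophage genes and 5 of 8 T and NK cell genes. Ms4a1 (CD20), Cd22 and Blk of B cells, Itgax (CD11c), Xcr1 and Cd209a of dendritic cells, and Adgre1, C1qa, C1qb and C1qc of macrophages were among those under it. Cd79b, a chain of the B cell receptor complex, averaged 7.31 in Tet1 KO and 7.73 in WT, and Cd79a, its partner, 5.80 in Tet1 KO and 5.58 in WT. Zbtb46, a factor of conventional dendritic cells, averaged 5.54 in Tet1 KO and 5.69 in WT, and Siglech, a receptor of plasmacytoid dendritic cells, 5.83 in Tet1 KO and 5.71 in WT. Csf1r, a receptor of monocytes and macrophages, averaged 7.01 in Tet1 KO and 6.55 in WT. Its Tet1 KO samples lay far apart, at 8.73, 5.30 and 6.99, against 6.26, 6.31 and 7.07 in WT. The median difference was 0.22 over the B cell genes, 0.02 over conventional dendritic cells, 0.03 over plasmacytoid dendritic cells, 0.04 over monocytes and macrophages and 0.18 over T and NK cells. Of these 5 lists, Ccr7, Cd163, Cx3cr1, Pax5 and Cd8a had an unadjusted limma p under 0.05, 2 of them lower and 3 higher, against 3.96% of all genes lower and 3.25% higher. Ccr7, the homing receptor of migrating dendritic cells and T cells, read 4.16, 3.19 and 2.99 in Tet1 KO and 4.63, 4.11 and 6.60 in WT, with WT replicate 3 far above the rest. WT replicate 3 also had the highest summed signal of conventional dendritic cell genes, Ccr7 included. Among the WT arrays its member values went both ways, being for example the lowest at H2-Ab1, H2-Eb1, Cd74 and Ctss, and the highest at 1438858_x_at and 1452431_s_at of H2-Aa, 1422527_at of H2-DMa, H2-Oa and H2-DMb2. Cd163, a macrophage scavenger receptor, differed by -0.71 (SE 0.20), while Cx3cr1, a chemokine receptor of monocytes and some progenitors, differed by 0.88 (SE 0.28). Pax5, the B lineage factor, differed by 0.42 (SE 0.15) and Cd8a by 0.53 (SE 0.20). The progenitor markers Kit and Cd34 read 9.84 ± 0.15 and 10.76 ± 0.16 in Tet1 KO and 9.94 ± 0.10 and 10.82 ± 0.19 in WT (SD, n = 3 each). Kit and Cd34 were thus bright in both groups. Ly6a, the gene of Sca-1, had no value in this list. Other genes of the list differed more, with Hlf at -0.50 (SE 0.23), Cd48 at -0.41 (SE 0.26) and Slamf1 at 0.78 (SE 0.54). Slamf1 read 5.83, 7.97 and 6.01 in Tet1 KO and 5.97, 5.86 and 5.63 in WT, so that Tet1 KO replicate 2 stood apart. Of 10 measured LSK and stem cell genes, 7 had a difference under 0, against 43.5% of all genes, and 0 had an unadjusted limma p under 0.05, against 3.96% lower and 3.25% higher. Their median was -0.12, against 0.05 over all genes. Most of these genes were bright, and probe sets within 0.5 of the mean level of the Ctss probe set had a median difference of -0.11. Any part of other cell types in the class II values was not tested beyond these levels.

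The 8 genes most like H2-Aa, by Pearson r of their brightest probe set with 1435290_x_at over the 6 arrays among 12954 genes above background, were Wdr24, Pip5k1a, Xpo6, Otud3, Tmem223, Paf1, Plekho2 and Isoc2b. Their r lay between 0.987 and 0.993. Cd74 and the other members were left out of that ranking, and r for Cd74 was 0.98. Tmem223 had the largest difference of the 8, at -1.03 (SE 0.17), and Paf1 the smallest, at -0.26 (SE 0.13), against -1.28 for H2-Aa. With 6 arrays in 2 separated groups, a high r mainly records a gap between groups with little spread within them.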

How the data were processed

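Total RNA of sorted LSK cells was labelled from 125 ng and hybridized to Affymetrix arrays, per the labels' protocols. The authors deposited 1 log2 intensity for each probe set on each array. Their background correction, normalization and probe summary were not given in the sources used here. That the scale is log2 was inferred from the range of values, 1.50 to 14.6, and array medians differed by at most 0.0694. Samples were grouped by their titles. Probe sets were named from the platform annotation where it gave 1 gene symbol. Tet1 KO was compared with WT in limma 3.58.1 (R 4.3.3, lmFit and eBayes, two-sided) over 45037 probe sets, without the 64 controls, with Benjamini-Hochberg adjustment over all of them at a threshold of 0.05. The fit was also tested on simulated data. Single genes outside the member set were taken at their brightest probe set, in the same fit over 18193 genes. As a guide to background, the brightest of the 27 bacterial controls was taken on each array and averaged over arrays (4.39). Promoter windows came from RefSeq tables of GRCm38.p6, and no window was printed for H2-Ab1, Cd74 and Ciita.

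The members and the lists were chosen with earlier results of these data known. The rule for named genes took every member probe set, Tet1, up to 4 genes of each other list by unadjusted p, the defining markers of the cell type lists, and the 8 genes most like H2-Aa. Alternatives were 3 normalizations, 3 variance models, 2 filters on level, the replicate number as a block, averaging all probe sets per gene and leaving out each array. A covariate for the Xist state of an array, and a fit on the Xist-high arrays alone, were added after seeing the data. Same-numbered samples did not deviate together (r of 0.01, -0.01 and 0.00054 between the Tet1 KO and WT arrays numbered 1, 2 and 3). Figures were drawn with matplotlib 3.10.9.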

Additional observations from a re-analysis of the deposited data

How the results depend on the processing

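Of the 20 member probe sets, 17 kept the sign of their difference under each of the alternatives in which they were tested, 17 at most. The other 3 were 1443783_x_at of H2-Aa and 1421210_at and 1447075_at of Ciita, whose differences lie near 0. The 8 chain and Cd74 probe sets above background stayed between -1.49 and -0.41 over all alternatives. The count of members with an adjusted limma p under 0.05 stayed at 0 in every fit, and the lowest adjusted p of a member in any fit was 0.205, for 1452431_s_at with array weights. Leaving out each array gave a member median between -0.600 and -0.365, the latter without Tet1 KO replicate 2, the array whose H2-Ob and H2-Oa values were lowest. Quantile normalization gave a member median of -0.49, cyclic loess -0.44 and the replicate block -0.54, with 9 members at an unadjusted p under 0.05 under the block against 8 without it. The numbers of the replicates pair no samples by the labels. With the 4 arrays high for Xist alone, 2 in each group, 18 of 20 members were lower, with a median of -0.42, H2-Aa at -1.41 and Cd74 at -1.40. With an intensity trend, with or without robust estimation, 1 probe set of all was called in place of 0. It was 1450192_at, which has no gene name here and is no member, with a difference of -3.34, and it was looked up after the count was seen. Averaging all probe sets per gene gave 9 lower genes in place of 8, with H2-Aa at -0.81, an average that includes the probe set under background, and H2-DMb2 at 0.24 in place of 0.68. Array signal near background limits what can be said of Ciita.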

Other observations

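Probe sets assigned to a member gene together with another gene were left out of the set and gave the following values. For 1418638_at, assigned to H2-DMb1 and H2-DMb2, the arrays read 6.10, 5.84 and 5.49 in Tet1 KO and 6.51, 6.55 and 6.76 in WT, without overlap. Its difference was -0.79 (SE 0.20), of the size seen for H2-Ab1 and opposite to 2 of the 3 probe sets of H2-DMb2 alone. For 1449580_s_at, assigned to the same pair of genes, they read 6.74, 7.36 and 6.28 in Tet1 KO and 7.65, 7.28 and 7.23 in WT, a difference of -0.60 (SE 0.29), with Tet1 KO replicate 2 inside the WT range. For 1422201_at, assigned to H2-Ob and Gm20506, they read 6.24, 5.82 and 6.10 in Tet1 KO and 6.03, 6.29 and 6.20 in WT, a difference of -0.12 (SE 0.17). Tet1 KO replicate 2 was again the lowest array there, but by far less than at the probe set of H2-Ob alone, where it read 5.06 against 7.77 to 8.49 in the other Tet1 KO samples. The related chain gene H2-Eb2 read 4.83, 5.08 and 4.56 in Tet1 KO and 4.64, 4.59 and 4.61 in WT, near the bacterial control level.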
